A study of Mus musculus with 8 samples.

Results

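The glucocorticoid receptor, its closest relative, the chaperones that fold and hold them and the enzyme that regenerates their natural ligand were followed across the hormone and tetracycline states of a mouse mammary cell line. The rule named 10 genes, Nr3c1, Nr3c2, Fkbp5, Fkbp4, Hsp90aa1, Hsp90ab1, Ptges3, Stip1, Hspa8 and Hsd11b1. For each, the probe sets annotated with that symbol alone were taken, and of several the one with the highest mean of all 8 arrays was used. Of the 10 genes, 9 had such a probe set, out of 19938 genes measured. Hsp90ab1 had none under its symbol alone and was not analysed here. The 9 genes had 15 probe sets in all, because Hsp90aa1, Ptges3 and Hspa8 had 3 each.

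RNA came from 3134 cells, a line derived from C127 cells, which go back to a mammary tumour of an RIII mouse. All cells carried stably integrated A-fos, a dominant negative protein that keeps the AP-1 transcription factor off DNA, together with the tTA regulator of a Tet-Off switch, which is active without tetracycline. The 4 groups had 2 arrays each and were plus tetracycline with 4 h of dexamethasone, plus tetracycline at 0 h without hormone, no tetracycline with 4 h of dexamethasone, and no tetracycline at 0 h without hormone. Dexamethasone was given at 100 nM and tetracycline, where present, at 1 ug per ml, and all cells were kept for 48 h in charcoal-treated serum, which is stripped of steroids, before hormone. The study asked how the hormone response depends on AP-1 binding. The treatment descriptions state the opposite tetracycline state from the titles for all 8 samples, so the arms are called plus-titled and no-titled after the titles. The labels do not settle in which arm A-fos was made, and the sign of a difference between arms carries no statement on it.

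In background, the receptor is folded by HSP70 and its HSP40 partners and passed to HSP90 by the adaptor HOP, which Stip1 encodes. The co-chaperone p23, from Ptges3, then stabilises the state that can bind steroid. The FKBP proteins FKBP51, from Fkbp5, and FKBP52, from Fkbp4, compete for the same HSP90 surface: FKBP51 keeps the receptor at low affinity, and FKBP52 goes with ligand binding and movement to the nucleus. Fkbp5 is itself a well-known target gene of the receptor, so the hormone raises an inhibitor of its own receptor. Hormone is also known to lower the receptor's own mRNA in many cell types.

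The promoters of Fkbp5 and Fkbp4 are shown because these paralogous co-chaperones gave the clearest hormone response and the clearest difference between arms among the 9 genes. Each sequence holds the 250 bases before the gene's start, read 5′ to 3′ on the gene's strand, from RefSeq on GRCm38.p6. Capitals mark a match to the heat shock element searched for, and lower case is the rest.
Fkbp5 (chr17:28486150-28486399, minus strand): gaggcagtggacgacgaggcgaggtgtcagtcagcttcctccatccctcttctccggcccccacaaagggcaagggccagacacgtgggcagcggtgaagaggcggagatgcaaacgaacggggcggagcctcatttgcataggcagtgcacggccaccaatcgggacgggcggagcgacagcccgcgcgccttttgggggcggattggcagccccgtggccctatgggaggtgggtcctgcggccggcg
Fkbp4 (chr6:128438657-128438906, minus strand): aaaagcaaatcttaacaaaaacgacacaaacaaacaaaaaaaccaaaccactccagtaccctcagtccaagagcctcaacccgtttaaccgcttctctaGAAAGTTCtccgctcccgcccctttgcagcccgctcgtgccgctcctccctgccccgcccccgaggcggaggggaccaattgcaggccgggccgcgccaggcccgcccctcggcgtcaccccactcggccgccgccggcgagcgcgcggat
The promoter table held 6 of the 10 genes, Nr3c2, Fkbp5, Fkbp4, Ptges3, Stip1 and Hsd11b1, and 5 motifs were searched on both strands. A heat shock element of 2 units (GAANNTTC or TTCNNGAA) was present in Fkbp4 as GAAAGTTC and in Nr3c2 as GAACTTTC, each with its first base at -151 from the start. It was present in 12.8% of 32851 promoter windows of the same length. The element with a further unit of GAA or TTC in the same spacing, which contains the shorter motif, was in 0.466% of windows and in none of the 6. The shorter glucocorticoid receptor motif (AGAACA or TGTTCT) was in 16.1% of windows, its palindromic site (GNACA and TGTNC, 3 bases apart) in 0.387% and an AP-1 site (TGANTCA) in 6.75%, and none of these 3 was found in the 6 windows. A match is a description of letters, and no match says only that the letters are not in these 250 bases.

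Values are RMA signals on the log2 scale, so a difference of 1 is a 2-fold change, and levels of different probe sets are compared only roughly, for the cell markers, by whether they lie above the median gene. Array medians lay between 5.59 and 5.69, the 2 arrays of a group had correlations of 0.9932 to 0.9956 over genes, and between them 4 to 24 genes were more than 2-fold apart. Differences were tested with limma over all 19938 genes, and a gene was called at a Benjamini-Hochberg adjusted p under 0.05. All adjusted p-values of genes below come from this limma model, errors of differences are SE and errors of group means are SD over 2 arrays. Nothing in the labels says that the 2 arrays of a group came from separate cultures, so p-values measure only how these samples vary, which may be technical. Of the markers of mammary cells, 6 of 8 basal or mesenchymal genes lay above the median gene, and the basal genes Krt5 and Trp63 lay below it. The mesenchymal genes Vim (12.61 to 12.99) and Fn1 (10.93 to 11.45) were high on all arrays. Of 7 luminal epithelial markers 2 lay above the median gene, and Epcam read 4.06 to 4.58. None of 6 leukocyte and none of 5 adipocyte markers lay above the median gene, and 1 of 5 endothelial markers did.

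**Figure D1:**
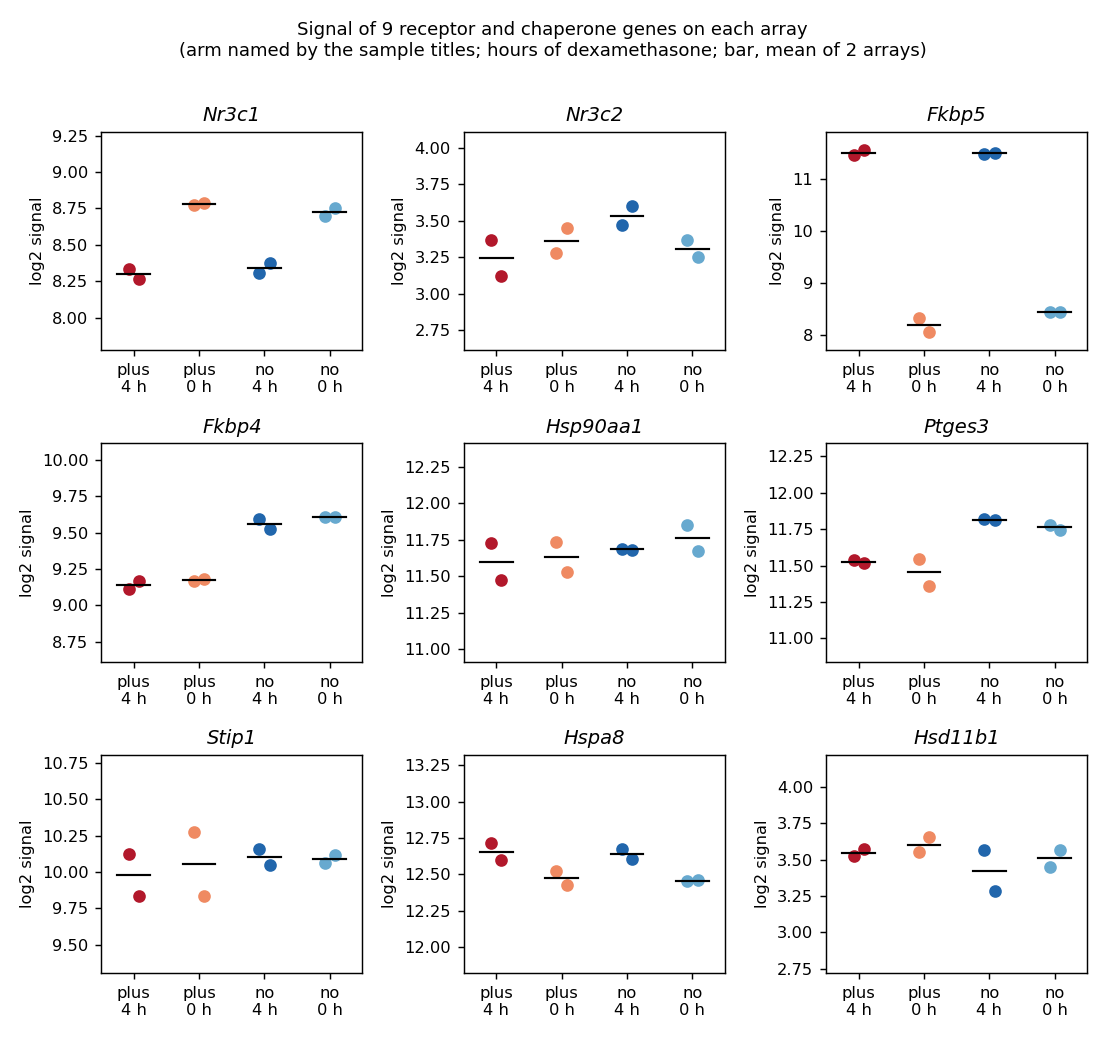
Log2 signal (vertical axes, each panel with its own scale) of the 9 genes on each of the 8 arrays, by arm as titled and hours of dexamethasone; points are arrays and bars are means of 2. Fkbp5 lies near 11.5 on the 4 hormone arrays and between 8.06 and 8.46 without hormone, Nr3c1 is lower on every hormone array, and Fkbp4 and Ptges3 are lower on the 4 plus-titled arrays.

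The receptor gene Nr3c1 (probe set 10458569) was lower after hormone in both arms. It read 8.33 and 8.26 with 4 h of dexamethasone against 8.77 and 8.79 at 0 h in the plus-titled arm. In the no-titled arm it read 8.31 and 8.38 with dexamethasone against 8.70 and 8.75 at 0 h. All 4 hormone arrays thus lay below all 4 arrays without hormone, and the arms overlapped with hormone. Averaged over both arms, Nr3c1 fell by 0.43 ± 0.07 on the log2 scale (95% interval -0.59 to -0.27, adjusted p = 0.00779). The signal thus fell by 26.0%. Within an arm the differences were -0.48 ± 0.10 in the plus-titled arm (adjusted p = 0.0606) and -0.38 ± 0.10 in the no-titled arm (adjusted p = 0.144), and neither was called. Both were called with a variance model that follows signal and resists outliers (adjusted p = 0.00919 in the plus-titled and 0.0358 in the no-titled arm).

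The size of the Nr3c1 change did not separate the arms by test. The response in the plus-titled arm minus that in the no-titled arm was -0.10 ± 0.15 (95% interval -0.42 to 0.22, adjusted p = 0.997). At 4 h the plus-titled arm differed from the no-titled arm by -0.05 (95% interval -0.27 to 0.18, adjusted p = 0.864) and at 0 h by 0.05 (95% interval -0.17 to 0.28, adjusted p = 0.817). The order of group means was plus-titled 0 h (8.78 ± 0.01), no-titled 0 h (8.73 ± 0.04), no-titled 4 h (8.34 ± 0.05) and plus-titled 4 h (8.30 ± 0.05). The neighbours at the same time were not called different. The mean response kept its call whichever array was left out, with adjusted p between 0.0234 and 0.0473.

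Nr3c2 (probe set 10572949), which encodes the mineralocorticoid receptor, a relative that binds the same natural steroids, gave low signals. It read 3.37 and 3.12 with dexamethasone against 3.28 and 3.45 at 0 h in the plus-titled arm. The no-titled arm read 3.47 and 3.60 with dexamethasone against 3.37 and 3.25 at 0 h. In the no-titled arm alone the hormone arrays lay above the others. The mean response was 0.05 ± 0.09 (95% interval -0.14 to 0.25, adjusted p = 0.895), and no contrast was called. At 4 h the plus-titled arrays lay below the no-titled ones, with a difference of -0.29 ± 0.13 (95% interval -0.57 to -0.01, adjusted p = 0.203). Nr3c2 and Hsd11b1 were among the dimmest 25% of genes, and a filter that leaves those out removed both, so 7 of the 9 genes passed it.

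The co-chaperone gene Fkbp5 (probe set 10449452) gave the largest change of the 9 genes. With 4 h of dexamethasone it read 11.47 and 11.56 in the plus-titled arm, against 8.33 and 8.06 at 0 h. In the no-titled arm it read 11.50 and 11.51 with dexamethasone, against 8.45 and 8.46 at 0 h. The hormone arrays stood clear of the others in both arms. The rise was 9.99-fold in the plus-titled arm (95% interval 8.34 to 11.98, log2 3.32 ± 0.12, adjusted p = 2.02e-07). In the no-titled arm it was 8.27-fold (95% interval 6.90 to 9.91, log2 3.05 ± 0.12, adjusted p = 6.16e-07). By p-value Fkbp5 ranked 1 of 19938 genes in the plus-titled arm and 2 in the no-titled arm.

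The difference of the Fkbp5 responses, 0.27 ± 0.17 on the log2 scale (95% interval -0.10 to 0.64), was not called (adjusted p = 0.997). The levels with hormone differed between arms by 0.01 (95% interval -0.25 to 0.27, adjusted p = 0.969). Without hormone the plus-titled arrays lay below the no-titled ones, with group means of 8.20 ± 0.19 against 8.45 ± 0.0012, a difference of -0.26 ± 0.12 (adjusted p = 0.224). In order of level, the means were 11.52 in plus-titled 4 h, 11.50 in no-titled 4 h, 8.45 in no-titled 0 h and 8.20 in plus-titled 0 h. The plus-titled 0 h arrays differed from each other by more than the higher of them did from the no-titled 0 h arrays. Fkbp5 was called in both arms in every setting and with any array left out.

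Of the 9 genes, 1 was called for the hormone response in the plus-titled arm, where 1.1% of all genes were called (0.823% higher and 0.281% lower). In the no-titled arm 1 was called, where 1.43% of all genes were (1.03% higher and 0.401% lower). Both were Fkbp5, higher. For the mean of both arms 2 of 9 were called, Fkbp5 higher and Nr3c1 lower, against 2.96% of all genes (1.73% higher and 1.23% lower). The median log2 change of the 9 genes in the mean response was -0.031, and that of all genes was 0.003. For the difference of the responses none of the 9 was called, against 0.00502% of all genes (1 gene), and none of the 9 had an unadjusted p under 0.05, against 1018 of all genes. With the other variance model 4 genes were called higher and 7 lower for that difference, none of them among the 9.

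**Figure D2:**
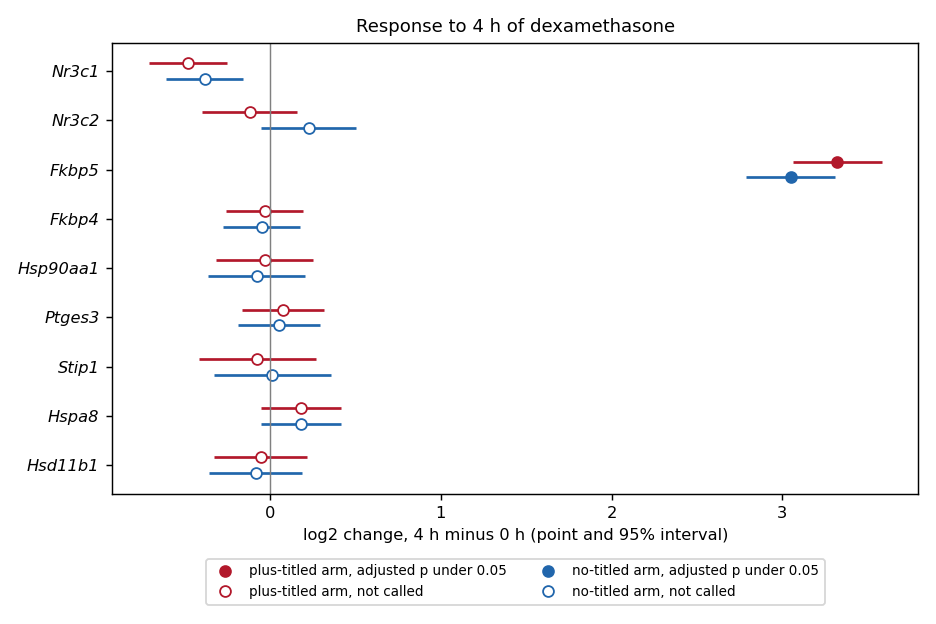
Log2 change of each gene after 4 h of dexamethasone (horizontal axis, 4 h minus 0 h) with its 95% interval, in the plus-titled arm (red, upper of each pair) and the no-titled arm (blue), filled where the adjusted p is under 0.05. Fkbp5 stands at 3.32 and 3.05, both Nr3c1 intervals lie below 0, and the other 7 genes have intervals that include 0.

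Fkbp4 (probe set 10548194), the FKBP52 paralog, did not follow Fkbp5. It read 9.11 and 9.17 with dexamethasone against 9.17 and 9.18 at 0 h in the plus-titled arm. In the no-titled arm it read 9.60 and 9.53 with dexamethasone against 9.61 and 9.61 at 0 h. All 4 plus-titled arrays lay below all 4 no-titled arrays, by more than the spread within any group. The hormone response was -0.03 ± 0.10 in the plus-titled arm (95% interval -0.26 to 0.19, adjusted p = 0.954) and -0.05 ± 0.10 in the no-titled arm (95% interval -0.27 to 0.18, adjusted p = 0.97).

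Between the arms Fkbp4 was lower in the plus-titled arm by test at both times. The difference was -0.42 ± 0.10 at 4 h (adjusted p = 0.0269) and -0.43 ± 0.10 at 0 h (adjusted p = 0.0250). The signal fell by 25.2% at 4 h and fell by 26.0% at 0 h. The mean of both times, 4 arrays against 4, was -0.43 ± 0.07 (95% interval -0.59 to -0.27, adjusted p = 0.00206). That contrast was added after the data were seen. It kept its call with any array left out, with adjusted p between 0.00581 and 0.0121. The 0 h call was lost without any 1 of the 4 arrays of the 0 h groups (adjusted p up to 0.138), and the 4 h call without any 1 of the 4 arrays of the 4 h groups or of the 2 no-titled 0 h arrays (adjusted p up to 0.167), while the log2 differences stayed between -0.45 and -0.38.

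Ptges3 (probe set 10511865), which encodes p23, showed the same ordering of arrays with a smaller step. It read 11.54 and 11.52 with dexamethasone against 11.55 and 11.36 at 0 h in the plus-titled arm. It read 11.82 and 11.81 with dexamethasone against 11.78 and 11.75 at 0 h in the no-titled arm. The plus-titled arrays again all lay below the no-titled ones, and the arms differed by -0.29 ± 0.11 at 4 h (adjusted p = 0.142) and by -0.31 ± 0.11 at 0 h (adjusted p = 0.111). Over both times the difference was -0.30 ± 0.08 (adjusted p = 0.0201), so the signal in the plus-titled arm fell by 18.7%. Leaving out either plus-titled 0 h array kept this call, and leaving out any other array ended it (adjusted p up to 0.0741). The hormone responses were 0.07 ± 0.11 and 0.05 ± 0.11 in the plus-titled and no-titled arms, and neither was called.

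The 3 probe sets of Ptges3 gave the same direction between arms. The second by mean differed by -0.35 at 4 h (adjusted p = 0.0898) and -0.30 at 0 h (adjusted p = 0.144). The third differed by -0.51 at 4 h (adjusted p = 0.0355) and -0.44 at 0 h (adjusted p = 0.0599), reading 8.42 and 8.63 in the plus-titled 4 h group against 8.95 and 9.10 in the no-titled 4 h group. Of the 3, only the last has neighbours in probe set number (19 of 20) that name genes on the chromosome of Ptges3 itself. The used probe set's neighbours (19 of 20) lie on another chromosome, as do those of the used probe sets of Hsp90aa1 (19 of 20) and Hspa8 (19 of 20), and which transcripts such probe sets read was not tested.

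**Figure D3:**
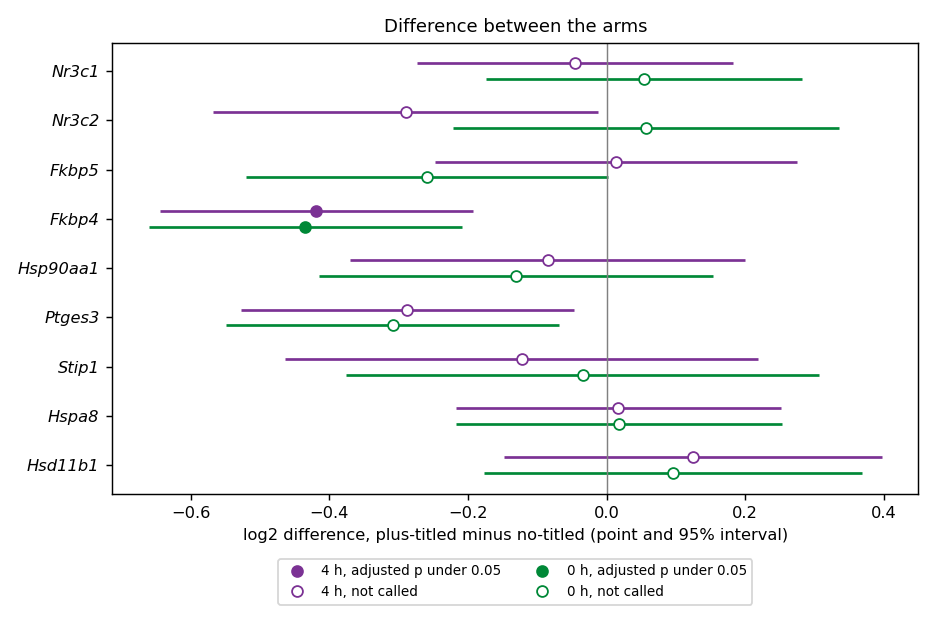
Log2 difference between the arms (horizontal axis, plus-titled minus no-titled) with its 95% interval for each gene, at 4 h (purple, upper of each pair) and 0 h (green), filled where the adjusted p is under 0.05. Fkbp4 is called at both times (-0.42 and -0.43), and Ptges3 has intervals below 0 at both times without being called. The Nr3c2 interval at 4 h also lies below 0 (-0.57 to -0.01), without a call.

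Hsp90aa1 (probe set 10378848), the inducible cytosolic HSP90, read 11.73 and 11.47 with dexamethasone against 11.74 and 11.53 at 0 h in the plus-titled arm. It read 11.69 and 11.68 with dexamethasone against 11.85 and 11.68 at 0 h in the no-titled arm. All groups overlapped. The mean response was -0.06 ± 0.09 (95% interval -0.26 to 0.15, adjusted p = 0.891), and the arms differed by -0.09 at 4 h (adjusted p = 0.783) and -0.13 at 0 h (adjusted p = 0.611). Its other 2 probe sets, of which the second by mean has neighbours on the gene's own chromosome, had mean responses of -0.05 and -0.03.

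Stip1 (probe set 10465604), the HOP adaptor, read 10.12 and 9.83 with dexamethasone against 10.27 and 9.83 at 0 h in the plus-titled arm. It read 10.16 and 10.05 with dexamethasone against 10.06 and 10.11 at 0 h in the no-titled arm. The groups overlapped in every comparison. The plus-titled pairs had the widest spread of the 9 genes, with SD of 0.21 at 4 h and 0.31 at 0 h, and in both pairs replicate 1 was the higher, as it was for Hsp90aa1. The mean response was -0.03 ± 0.11 (95% interval -0.27 to 0.21, adjusted p = 0.959), and the arms differed by -0.12 ± 0.15 at 4 h (adjusted p = 0.729) and -0.03 ± 0.15 at 0 h (adjusted p = 0.925).

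Hspa8 (probe set 10528021), the constitutive HSP70, read 12.71 and 12.60 with dexamethasone against 12.52 and 12.43 at 0 h in the plus-titled arm. It read 12.67 and 12.61 with dexamethasone against 12.46 and 12.46 at 0 h in the no-titled arm. Hormone arrays lay above those without hormone in both arms. The difference was 0.18 ± 0.11 in each arm and 0.18 ± 0.08 over both (95% interval 0.02 to 0.35), which was not called (adjusted p = 0.332). Its other 2 probe sets gave 0.17 each over both arms, neither called. On the dimmer, whose 20 neighbours lie on the gene's own chromosome, the plus-titled groups overlapped, with 11.53 and 11.75 at 4 h against 11.54 and 11.37 at 0 h. A further 2 probe sets name Hspa8 together with other symbols and were not used.

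Hsd11b1 (probe set 10361234), the reductase that makes active glucocorticoid from its inert keto form, gave low signals like Nr3c2. It read 3.52 and 3.57 with dexamethasone against 3.55 and 3.66 at 0 h in the plus-titled arm, and 3.57 and 3.28 with dexamethasone against 3.45 and 3.57 at 0 h in the no-titled arm. Groups overlapped in all 4 comparisons. The mean response was -0.07 ± 0.09 (95% interval -0.26 to 0.12, adjusted p = 0.844), and the arms differed by 0.12 at 4 h (adjusted p = 0.639) and 0.10 at 0 h (adjusted p = 0.716).

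Between the arms 1 of the 9 genes was called at 4 h, where 9.61% of all genes were called (5.29% higher and 4.32% lower). At 0 h 1 of 9 was called, where 9.38% of all genes were (6.2% higher and 3.18% lower). In each case it was Fkbp4, lower. For the mean of both times 2 of 9 were called, Fkbp4 and Ptges3, both lower in the plus-titled arm, against 18.8% of all genes (11% higher and 7.74% lower). These shares of the 9 genes are near those of all genes. The share of all genes itself depends on single arrays, with 3.28% to 10.7% called at 4 h and 2.95% to 8.24% at 0 h when 1 array was left out, lowest without no-titled replicate 1 of that time. The median difference of the 9 genes was -0.085 at 4 h and -0.035 at 0 h, against -0.014 and -0.019 over all genes.

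Markers also differed between the arms. Over both times 4 of 8 basal or mesenchymal markers were called, Acta2 higher and Krt14, Vim and Fn1 lower in the plus-titled arm, and none of the luminal, leukocyte, endothelial or adipocyte markers, against 18.8% of all genes. The differences were 1.55 for Acta2 (adjusted p = 0.0029), -1.40 for Krt14 (adjusted p = 3.38e-05), -0.30 for Vim (adjusted p = 0.0146) and -0.34 for Fn1 (adjusted p = 0.00826). The summed linear signal of the list, of which Vim and Fn1 made up 88.3% to 91.9% on each array, was 9122 to 9792 in plus-titled 4 h, 9697 to 9773 in plus-titled 0 h, 11156 to 11667 in no-titled 4 h and 11803 to 11949 in no-titled 0 h. Acta2 also split the plus-titled replicates, with 7.87 and 6.63 at 4 h and 8.15 and 6.96 at 0 h, replicate 1 being the higher, against 5.99 and 5.62 at 4 h and 5.95 and 5.84 at 0 h in the no-titled arm. The part of these marker differences in those of Fkbp4 and Ptges3 was not tested. For the mean hormone response 1 of 8 basal or mesenchymal markers was called, Zeb1, lower (-0.40, adjusted p = 0.0258). None in the other lists was called, against 2.96% of all genes. The part of Zeb1 in the Nr3c1 change was not tested. RNA per cell and the make-up of the culture cannot be told apart in bulk RNA.

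**Figure D4:**
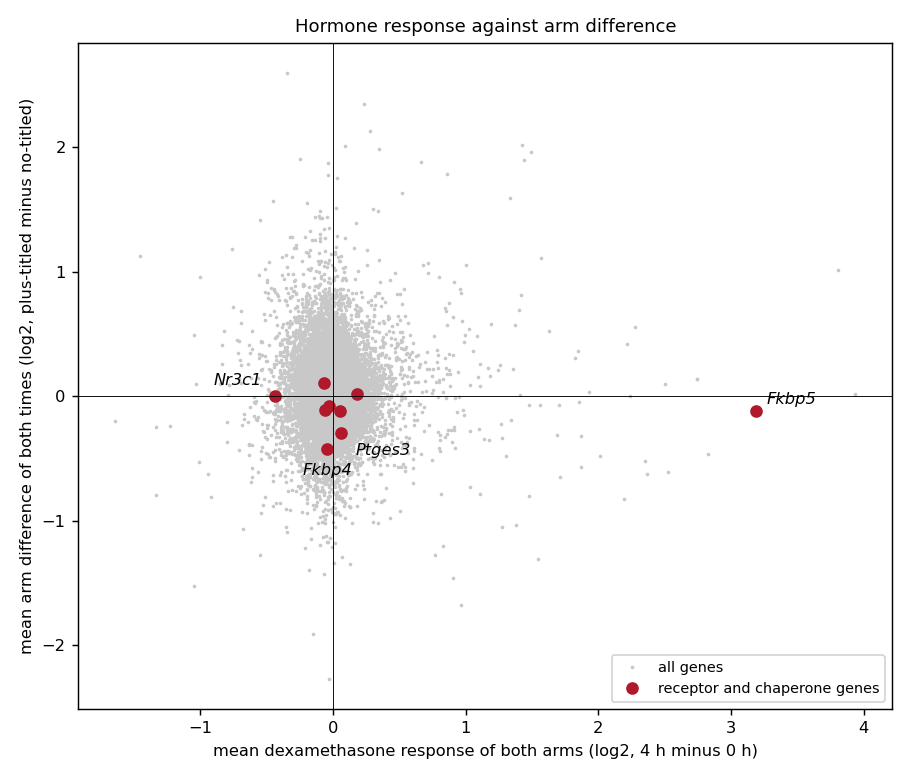
Mean dexamethasone response of both arms (horizontal axis, log2, 4 h minus 0 h) against the mean difference between arms (vertical axis, log2, plus-titled minus no-titled) for all 19938 genes (grey) and the 9 receptor and chaperone genes (red). Fkbp5 lies at 3.18 and -0.12, Nr3c1 at -0.43 and 0.00, and Fkbp4 and Ptges3 lie near 0 for hormone and at -0.43 and -0.30 between arms.

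Fkbp5 and Nr3c1 were called for hormone and not between arms, and Fkbp4 and Ptges3 the reverse. In the main setting Nr3c1 had its call only for the mean of both arms. Ptges3 had its call only for the mean of both times, the contrast added after the data were seen. The Ptges3 call ended with cyclic loess and without any array other than those of plus-titled 0 h. The genes most like each called gene over the 8 arrays were listed among 3162 genes whose group means span at least 0.5. These correlations describe 8 arrays that share a normalisation and carry no test. For Fkbp5 they were Mt2, a metallothionein (r = 0.994, mean response 3.94), Vdr, the vitamin D receptor (r = 0.994, 1.48) and Preb (r = 0.993, 0.83). For Nr3c1 they were Gas2l3 (r = 0.977, mean response -0.59), the protocadherin Pcdh18 (r = 0.975, -1.22) and Klhl30 (r = 0.967, -0.85). For Fkbp4 they were Slc27a1, a fatty acid transporter (r = 0.997, mean arm difference -0.77), the transcription factor Ebf1 (r = 0.993, -1.01) and Aldh1l2, a mitochondrial folate enzyme (r = 0.992, -1.91). For Ptges3 they were the nuclear import adaptor Kpna2 (r = 0.993, -0.61), Gpatch4 (r = 0.992, -0.64) and Anp32b (r = 0.989, -0.60).

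The wider machinery was read from 8 lists of 118 genes, 107 of them measured. The list of classical glucocorticoid-induced genes was chosen with earlier results of these data known, so it is not an independent check of the hormone. Of 10, 9 rose over both arms, 8 in the plus-titled arm and 8 in the no-titled arm, against 1.73%, 0.823% and 1.03% of all genes called higher. Their median mean response was 2.49, against 0.003 over all genes. Mt2 rose by 3.94 and Lcn2, which binds iron carriers, by 3.81. Sgk1, a kinase that regulates ion channels, rose by 2.83. Tsc22d3, which encodes GILZ, rose by 2.75 over both arms, with 2.85 in the plus-titled and 2.64 in the no-titled arm. Zbtb16 was the 1 gene of the list not called (0.02, adjusted p = 0.964; named after its value was seen). For the difference of the responses none of the 10 was called. Of the 10, 4 had an unadjusted limma p under 0.05, against 1018 of all 19938 genes. The smallest p was that of Sgk1, with a difference of 1.11 (adjusted p = 0.129). Sgk1 read 6.63 and 6.75 in plus-titled 0 h against 7.79 and 7.64 in no-titled 0 h. Its difference of responses was called with the variance model that follows signal. Between the arms 1 of 10 was called at 4 h, higher, and at 0 h 2 higher and 1 lower, against 9.61% and 9.38% of all genes. Lcn2 was higher in the plus-titled arm by 1.42 at 4 h and 0.60 at 0 h (adjusted p = 0.000463 and 0.0351). At 0 h Dusp1 was higher by 0.70 and Sgk1 lower, at -1.02 (adjusted p = 0.0307 and 0.000884). The 0 h calls of Lcn2 and Dusp1 each stood in 5 of 8 fits without 1 array.

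HSP90 co-chaperones, 18 measured, showed 1 hormone call over both arms, where 2.96% of all genes were called. Cdc37l1, a relative of the kinase adaptor Cdc37, rose by 0.45 (adjusted p = 0.0105; 6 of 8 fits without 1 array). It read 7.60 and 7.80 with dexamethasone against 7.24 and 7.25 at 0 h in the plus-titled arm, and 7.55 and 7.56 with dexamethasone against 7.18 and 7.07 at 0 h in the no-titled arm. Between the arms 1 was higher and 3 lower in the plus-titled arm at 4 h, and likewise at 0 h, so 4 of 18 were called at each time, against 9.61% of all genes at 4 h and 9.38% at 0 h. Fkbpl, an FKBP-like co-chaperone, was higher by 0.79 at 4 h and 0.82 at 0 h (adjusted p = 0.00315 and 0.00276). Aarsd1 was lower, at -0.81 and -0.67 (adjusted p = 0.0012 and 0.00314), and so was Nudcd2, at -0.63 and -0.55 (adjusted p = 0.00483 and 0.0103). The third, Ppid, which encodes the cyclophilin co-chaperone CYP40, was named after its values were seen, at -0.54 and -0.52 (adjusted p = 0.0299 and 0.0361). The calls of Fkbpl and Aarsd1 stood in all 8 fits without 1 array at both times, Nudcd2 in 8 at 4 h and 7 at 0 h, and Ppid in 4 and 5.

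Of 15 other HSP90 and HSP70 chaperones measured of 16, none was called for hormone in limma (2.96% of all genes over both arms). Over both arms 1 of the 15 had an unadjusted p under 0.05, against 2467 of all 19938 genes. It was Hsph1, an exchange factor of HSP70 (0.24, adjusted p = 0.165). With the variance model that follows signal, Hsph1 was called over both arms. Between the arms Hspa9, the mitochondrial HSP70, was lower in the plus-titled arm, at -0.999 at 4 h and -0.94 at 0 h. It read 10.46 and 10.50 in plus-titled 4 h and 10.66 and 10.54 in plus-titled 0 h, against 11.48 and 11.48 in no-titled 4 h and 11.55 and 11.54 in no-titled 0 h (adjusted p = 0.000424 at 4 h and 0.000711 at 0 h). At 4 h Hspa14 (-0.46, adjusted p = 0.0249) and the mitochondrial HSP90 Trap1 (-0.40, adjusted p = 0.0436) were also lower, and Hspa4l was higher (0.40, adjusted p = 0.0411; named after its value was seen). In all 4 of 15 were called at 4 h and 1 at 0 h, against 9.61% and 9.38% of all genes. The calls of Hspa14, Trap1 and Hspa4l stood in 4, 2 and 2 of the 8 fits without 1 array.

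Heat shock response genes, 12 measured of 16, included Hspb1, a small heat shock protein, which rose by 0.43 over both arms (adjusted p = 0.0191; 2 of 8 fits without 1 array) and was the 1 called, where 2.96% of all genes were. Between the arms 1 was higher and 3 lower in the plus-titled arm at 4 h (4 of 12 called, against 9.61% of all genes), and 1 higher and 2 lower at 0 h (3 of 12, against 9.38%). The small heat shock protein Cryab was higher by 0.75 at 4 h and 0.85 at 0 h, with 9.66 and 9.81 in plus-titled 4 h against 8.92 and 9.05 in no-titled 4 h, and 9.60 and 9.52 in plus-titled 0 h against 8.65 and 8.77 in no-titled 0 h (adjusted p = 0.00289 and 0.00164). The mitochondrial chaperonin pair was lower, Hspd1 at -0.72 and -0.64 and Hspe1 at -0.54 and -0.54 (adjusted p between 0.00331 and 0.0319), and the third lower at 4 h was Hspb8 (-0.49, adjusted p = 0.0245; named after its value was seen). In these cells the called heat shock genes thus went both ways between arms. The Hspd1 calls stood in 8 of 8 fits without 1 array at 4 h and 7 at 0 h, and those of Hspe1 in 5 and 4.

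Among 22 HSP40 and exchange co-chaperones, Dnajb4 rose by 0.51 in the no-titled arm (adjusted p = 0.0408) and by 0.35 over both arms (adjusted p = 0.0300). Dnajb4 was the 1 gene of the 22 called in each case, where 1.43% and 2.96% of all genes were called. Its arrays read 8.74 and 8.85 with dexamethasone against 8.30 and 8.27 at 0 h in the no-titled arm, and 8.73 and 8.81 with dexamethasone against 8.60 and 8.58 at 0 h in the plus-titled arm. The difference of these responses was -0.33 (95% interval -0.66 to -0.0020, adjusted p = 0.967). Its no-titled call stood in 2 of the 8 fits without 1 array and was lost in a fit of only the arrays compared, and its call over both arms stood in 0 of 8. Between the arms Dnajc2 (-0.57, adjusted p = 0.0230) and Dnaja3 (-0.46, adjusted p = 0.0392) were lower in the plus-titled arm at 4 h. None was called at 0 h, where 5 of 22 had an unadjusted p under 0.05, as did 4538 of all 19938 genes. The shares of all genes called were 9.61% at 4 h and 9.38% at 0 h. The Dnajc2 call stood in 5 of 8 fits without 1 array, and the Dnaja3 call in 2 of 8 and not with median centring.

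Other FKBP genes, 10 measured of 12, had 1 hormone call over both arms, where 2.96% of all genes were called. Fkbp14, a prolyl isomerase of the endoplasmic reticulum, rose by 0.54 over both arms (adjusted p = 0.0214; 2 of 8 fits without 1 array), against 3.18 for Fkbp5. It was also higher in the plus-titled arm, by 0.82 at 4 h and 0.90 at 0 h (adjusted p = 0.00738 and 0.00491). Fkbp11 was lower, at -0.61 and -0.52 (adjusted p = 0.00542 and 0.0127), and Fkbp9 was higher at 0 h (0.49, adjusted p = 0.0201). In all 2 of 10 were called at 4 h and 3 of 10 at 0 h, against 9.61% and 9.38% of all genes. At 0 h the calls of Fkbp11 and Fkbp9 each stood in 5 of 8 fits without 1 array (adjusted p up to 0.0907 and 0.149).

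Receptor coregulators, 17 measured of 20, had none called for hormone by limma, where 2.96% of all genes were called over both arms. Over both arms 3 of the 17 had an unadjusted p under 0.05, against 2467 of all 19938 genes. The smallest p was that of the acetyltransferase gene Ep300 (0.37, adjusted p = 0.0826). Ep300 was called in 5 of 15 other settings, among them the variance model that follows signal, cyclic loess and the fit without plus-titled 0 h replicate 1. In the plus-titled arm the deacetylase gene Hdac1 was higher by 0.43 at 4 h and 0.46 at 0 h (adjusted p = 0.0309 and 0.0249), and Smarcd1, of the SWI/SNF remodelling complex, by 0.52 at 0 h (adjusted p = 0.0143). The methyltransferase gene Carm1 was lower at 4 h (-0.47, adjusted p = 0.0398). In all 2 of 17 were called at each time, against 9.61% of all genes at 4 h and 9.38% at 0 h. The Hdac1 calls stood in 2 of 8 fits without 1 array at 4 h and 4 at 0 h, that of Smarcd1 in 5 and that of Carm1 in 4, and the Carm1 call was lost with median centring and in a fit of only the arrays compared. Of 9 corticosteroid metabolism and transport genes measured of 11, none was called for hormone, where 2.96% of all genes were called over both arms. Over both arms 3 of the 9 had an unadjusted p under 0.05, against 2467 of all 19938 genes. H6pd, which supplies the cofactor of the Hsd11b1 enzyme, had the smallest of these (0.35, adjusted p = 0.0790), with 7.18 and 7.13 at 4 h against 6.95 and 6.98 at 0 h in the plus-titled arm and 7.36 and 7.18 at 4 h against 6.92 and 6.59 at 0 h in the no-titled arm. The drug and steroid exporter gene Abcb1b was lower in the plus-titled arm at 4 h (-0.55, adjusted p = 0.0313), a call that was lost without any 1 of the 4 arrays at 4 h (adjusted p up to 0.167). It was 1 of 9 called at 4 h, with none at 0 h, against 9.61% and 9.38% of all genes.

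**Figure D5:**
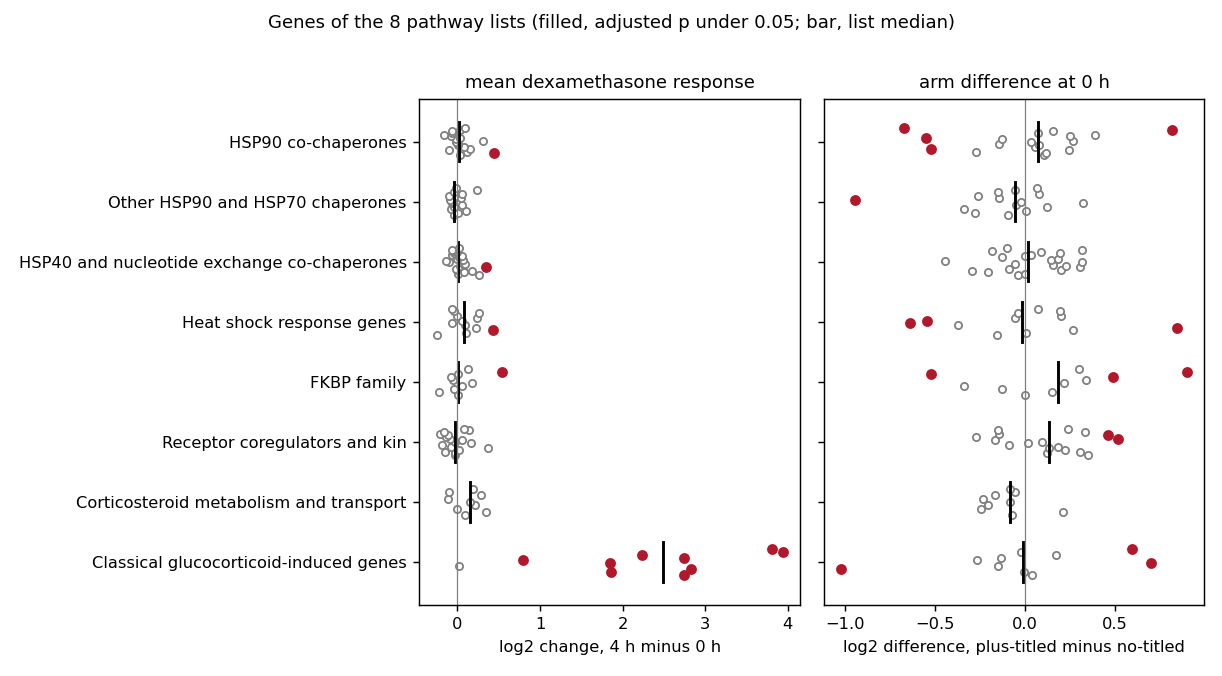
Log2 mean dexamethasone response (left panel, 4 h minus 0 h) and log2 difference between the arms at 0 h (right panel, plus-titled minus no-titled) of each measured gene of the 8 lists, filled where the adjusted p is under 0.05, with a bar at the list median. The 10 classical glucocorticoid-induced genes have a median response of 2.49 while the medians of the other 7 lists lie between -0.04 and 0.15. On the right Hspa9 is the lowest of the chaperone and FKBP genes (-0.94) and Fkbp14 the highest (0.90).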

How the data were processed

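The table deposited by the authors gives log2 expression of 28888 probe sets for the 8 arrays. It was made with RMA in Affymetrix Expression Console, per the submitters' processing notes; the sources used here give no versions. RMA corrects background, makes array distributions alike and summarises probes, so a shift common to nearly all genes is lost and changes of dim genes are compressed. Probe sets were named through the platform annotation: 21789 had exactly 1 symbol, 1621 several and 5478 none in the table used, and 21698 were matched by gene number. Where a gene had several, as 999 genes did, that with the highest mean was used.

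Groups follow the sample titles. limma 3.58.1 in R 4.3.3 (lmFit, eBayes) fitted a mean per group over 8 arrays, 2-sided, with Benjamini-Hochberg adjustment over 19938 genes; residual degrees of freedom were 4, prior degrees of freedom 6.64 and the prior SD 0.127. The number of arrays limits the precision. The steps were tested on simulated data with known changes. Of 1.5-fold changes, 31.3% were called for the plus-titled response, 32.8% for the no-titled response and 85.1% for their mean. For the difference of the responses 4.48% of 1.5-fold and 56.7% of 2-fold changes were called. Replicate numbers are not tied to a shared culture in the labels. Motifs were searched in 250 bases before each start.

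The genes and lists were chosen with earlier results of these data known. The naming rule took all 10 genes and, per list and contrast, up to 3 called genes with the largest change or else the gene with the smallest p, and the 3 genes most correlated with each called gene. The mean difference between arms was added after the data were seen. Alternatives were a variance model with trend and robust fitting, fits of just the groups compared, a replicate block, leaving out the dimmest 25%, cyclic loess, median centring, the mean, lowest or other probe sets, and each array left out.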

Additional observations from a re-analysis of the deposited data

How the results depend on the processing

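Fkbp5 kept its call in both arms, and Nr3c1 and Fkbp4 theirs for the mean response and the mean arm difference, in every setting. Among single values, 388 of those under planned settings other than leaving out an array kept direction and call, 7 changed sign, 6 gained a call and 1 lost it. With an array left out 442 kept both, 46 changed sign and 16 lost a call. With the variance model that follows signal, 2 of the 9 genes were called in place of 1 for the response in the plus-titled arm, in the no-titled arm, and between arms at 4 h and 0 h, and all genes called in the plus-titled arm's response numbered 249 higher and 121 lower in place of 164 and 56, those in the no-titled arm's 297 and 164 in place of 205 and 80. For the difference of the responses that model called 4 higher and 7 lower, and median centring 1 and 1, in place of 0 and 1. Leaving out the dimmest 25% of genes gave 2 for the plus-titled response, fitting only the arrays compared gave 0 between arms at 0 h, the lowest probe set gave 2 between arms at 4 h, and cyclic loess gave 1 for the mean arm difference. With 1 array left out, all genes called numbered 80 to 187 for the plus-titled response (220 with all arrays; lowest without plus-titled 4 h replicate 2), 134 to 291 for the no-titled response (285; lowest without no-titled 0 h replicate 1), 331 to 527 for the mean response (590; lowest without plus-titled 4 h replicate 2), 654 to 2128 between arms at 4 h (1916; lowest without no-titled 4 h replicate 1), 589 to 1642 at 0 h (1870) and 2650 to 3670 for the mean of both (3741), the last 2 lowest without no-titled 0 h replicate 1. Among the 9 genes the count was then 0 to 1 between arms at 4 h, 0 to 1 at 0 h and 1 to 2 for the mean of both. The replicate block left these counts as they were (1 in each arm's response, 2 for the mean response, 1 between arms at each time, 0 for the difference of responses and 2 for the mean arm difference); deviations of same-numbered arrays correlated between -0.019 and 0.133 and no label ties the numbers together. Dnajb4 was not called in the no-titled arm with the block. Only the arrays compared could not give a separate value for contrasts that use all 8.

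None of the following values was called in the main setting, and the cause of each change of sign was not tested. Cyclic loess gave Nr3c1 -0.011 between arms at 0 h and -0.036 for the mean of both times. For the difference of responses, median centring gave Fkbp4 -0.011 and Ptges3 -0.00555, the mean of probe sets Ptges3 -0.030 and Hspa8 0.020, and the lowest probe set Ptges3 -0.060 and Hspa8 0.020. The second probe set gave Ptges3 -0.051 and Hspa8 0.042 for that difference and the third -0.060 and 0.020, and the second gave Hspa8 -0.022 between arms at 0 h and -0.0011 for the mean of both. With 1 array left out, the plus-titled response ranged from -0.24 to 0.0028 for Nr3c2, -0.16 to 0.094 for Hsp90aa1, -0.021 to 0.17 for Ptges3 and -0.30 to 0.15 for Stip1. The no-titled response ranged from -0.16 to 0.0085 for Hsp90aa1, -0.042 to 0.067 for Stip1 and -0.23 to 0.059 for Hsd11b1. The mean response ranged from -0.0090 to 0.11 for Nr3c2, -0.12 to 0.0080 for Hsp90aa1, -0.14 to 0.079 for Stip1 and -0.14 to 0.0024 for Hsd11b1. Between arms at 4 h the range was -0.033 to 0.060 for Fkbp5, -0.21 to 0.041 for Hsp90aa1, -0.27 to 0.022 for Stip1, -0.039 to 0.073 for Hspa8 and -0.019 to 0.27 for Hsd11b1. At 0 h it was -0.030 to 0.14 for Nr3c2, -0.26 to 0.19 for Stip1 and -0.029 to 0.065 for Hspa8, and for the mean of both times -0.013 to 0.021 for Nr3c1, -0.19 to 0.031 for Stip1 and -0.011 to 0.045 for Hspa8. For the difference of responses it was -0.019 to 0.051 for Fkbp4, -0.080 to 0.17 for Hsp90aa1, -0.073 to 0.12 for Ptges3, -0.31 to 0.13 for Stip1, -0.057 to 0.055 for Hspa8 and -0.11 to 0.17 for Hsd11b1.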
